A study of Mus musculus with 5 samples.

Results

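Mouse epiblast stem cells (EpiSCs) differentiated without exogenous FGF2 were compared with EpiSCs given 12 ng/ml FGF2, the lowest and the highest dose of a titration. EpiSCs are pluripotent cells derived from the post-implantation epiblast, and the line used here came from an embryo of 129 background. Before differentiation, the paper's maintenance medium held 12 ng/ml FGF2 with ActivinA and the Wnt inhibitor XAV939. The 0 ng/ml culture was thus one from which FGF2 had been withdrawn. Cells of each library were kept for 3 days in N2B27 medium with 1 µM of the Wnt agonist CHIR99201 (Chi) and 8 ng/ml BMP4, so that Wnt and BMP stimulation were shared and the added FGF2 was what the labels gave as different. A barcode was kept as a cell if it had at least 2500 detected genes and at most 10% of its unique molecular identifiers (UMIs) in mitochondrial genes. This left 1696 of 2407 barcodes at 0 ng/ml and 2406 of 3437 barcodes at 12 ng/ml. Together they were 4102 of the 10653 cells kept in the 5 libraries of the series. The remaining libraries had 0.75 ng/ml FGF2, 3 ng/ml FGF2 or 30 nM of the FGFR inhibitor AZD4547, with the same Chi and BMP4. They are used only as context. The kept cells held 56812075 UMIs at 0 ng/ml and 70776993 UMIs at 12 ng/ml, with medians of 29661.5 and 27451.5 UMIs per cell. The libraries shared 2 deposited barcodes and 0 kept ones.

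Each dose is 1 library of 1 culture, so no difference between the doses has a replicate check and no p-value is given. Intervals are exact 95% intervals for counting error only, and FGF2 cannot be told apart from anything else that differed between these cultures or their libraries. Levels are given in CPM, the usual depth-scaled unit, as the UMIs of a gene summed over all kept cells and scaled to the total of its library. A gene is called higher or lower where the mean of both libraries was at least 10 CPM and the ratio at least 2. A gene low enough in 1 library can reach that mean only with a ratio of at least 2. Its call then follows from reaching the mean and is no separate result. Genes higher at 12 ng/ml for which this held include Arl4d, Mixl1, Tbx6, Fgf3, Spry4, Fst, Snai1, Lefty1, Lmo2, Isg15, Psmb8 and Cabp1. Genes lower at 12 ng/ml for which it held include Tgfbi, Nexn, Tfap2a, Cdkn2b, Myl9, Cnn1 and Nup62cl. Mitochondrial genes took 4.18% of UMIs at 0 ng/ml and 4.14% at 12 ng/ml.

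FGF ligands bind receptor tyrosine kinases, signal mainly through the ERK cascade and switch on their own feedback inhibitors, among them the Sprouty and Dusp genes. In the gastrulating embryo Fgf8 and Fgf4 are made in the primitive streak, where cells leave the epiblast, lose E-cadherin and form mesoderm. The T-box factors T (Brachyury) and Tbx6 mark the streak and the presomitic mesoderm, which the Notch-driven segmentation clock later divides into somites.

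Of 7919 genes with a mean of at least 10 CPM, 370 (4.67%) passed the rule of size. At 12 ng/ml 109 genes (1.38%) were higher and 261 (3.3%) were lower, and the median log2 ratio of all 7919 genes was 0.02. The genes with the largest ratios were Arl4d, Mixl1, Sprr2a3 and Fst, and those with the smallest were Igfbp5, Tgfbi, Tagln and Nexn. Igfbp5, which encodes an insulin-like growth factor binding protein, stood at 135 CPM without FGF2 and at 7.9 CPM with 12 ng/ml, 17.1-fold lower (15.7 to 18.7). Arl4d, a small GTPase of the ARF family, went the other way, with 2.71 CPM against 41.7 CPM, a ratio of 15.4 (13.1 to 18.2).

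**Figure D1:**
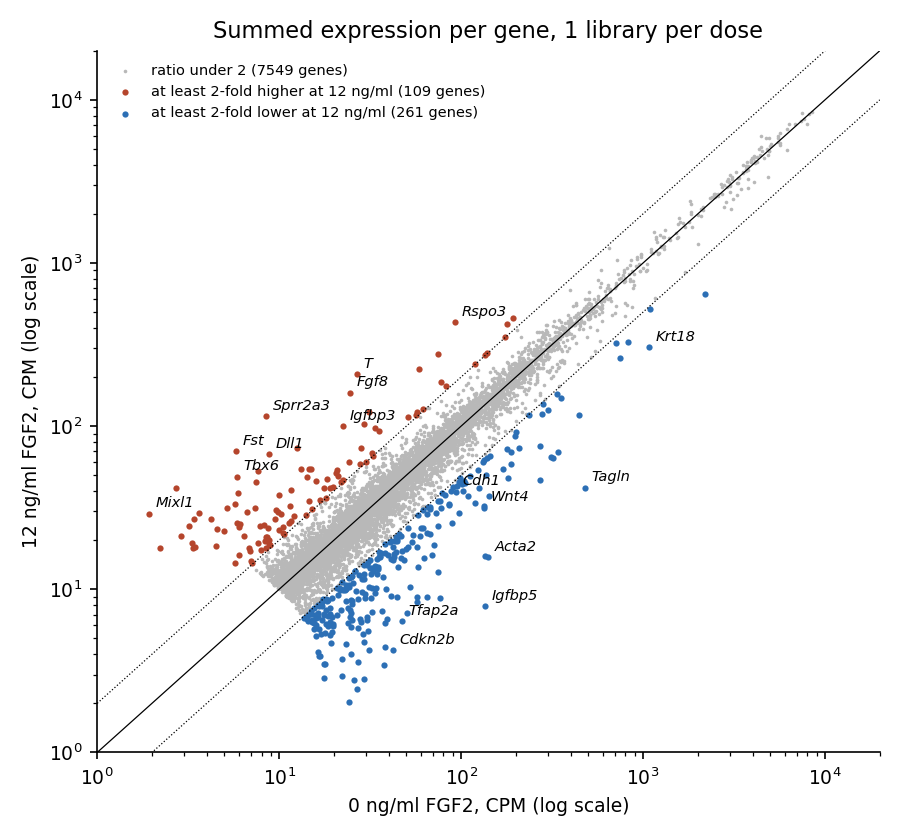
Level of each gene in CPM at 0 ng/ml FGF2 (horizontal) and 12 ng/ml FGF2 (vertical), both on log scales, for genes with a mean of at least 10 CPM. The solid line marks equal levels and the dotted lines a ratio of 2; 109 genes lie above the upper dotted line, 261 below the lower one.

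Streak and presomitic mesoderm genes were higher with 12 ng/ml over all kept cells, and their ratios within clusters, given further on, differed from these. T had 26.7 CPM (25.4 to 28.1) without FGF2 and 208 CPM (205 to 212) with 12 ng/ml, a ratio of 7.81 (7.41 to 8.24). Mixl1, a homeobox gene of the streak, had 1.94 CPM against 29.1 CPM, a ratio of 15 (12.4 to 18.4). Evx1, a homeobox gene of the posterior streak, had 11.5 against 32.6 CPM. These were the 3 streak genes of 7 that reached a mean of 10 CPM. Of them 3 of 3 were called higher, where 1.38% of all genes were. Mixl1 was so low at 0 ng/ml that it could reach that mean only if called higher. The remaining members did not reach that mean, among them Mesp1 with 1.58 CPM against 15.9 CPM, Lhx1 with 1.6 against 13.4 CPM and Eomes with 0.246 against 1.98 CPM.

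In the presomitic list, 6 of 13 genes reached 10 CPM and 6 of 6 were called higher, where 1.38% of all genes were. Among these, Tbx6 was so low at 0 ng/ml that it could reach that mean only if called higher. Tbx6 had 5.86 CPM without FGF2 and 49.0 CPM with it, a ratio of 8.36 (7.47 to 9.39). The Notch ligand Dll1 had 8.82 against 67.4 CPM, and Dll3, a divergent Notch ligand, had 7.69 against 53.1 CPM. Hes7, the oscillating repressor of the segmentation clock, had a ratio of 3.49 and the Notch feedback gene Nrarp one of 3.63. Rspo3, a secreted enhancer of Wnt signaling, had 93.0 CPM without FGF2 and 432 CPM with it, a ratio of 4.64 (4.51 to 4.78). Genes of formed somites stayed low at either dose, with Meox1 at 0.194 and 0.24 CPM and Tcf15 at 0.581 and 1.54 CPM.

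Caudal genes differed less. Cdx2, a caudal homeobox regulator, had 109 CPM against 185 CPM, a ratio of 1.70 (1.65 to 1.75). Nkx1-2, a marker of the caudal epiblast, had a ratio of 1.97 and Sp8 one of 1.52. The neural and pluripotency factor Sox2 had 27.0 CPM against 21.9 CPM. None of the 4 caudal genes above 10 CPM was called, where 4.67% of all genes were. Of 23 Hox genes above 10 CPM, 5 of them (Hoxb2, Hoxb6, Hoxb7, Hoxb8 and Hoxd3) were called higher and 0 lower. The shares of all genes so called were 1.38% and 3.3%. Among the 5 called genes Hoxb6 had the largest ratio, 3.19 (2.91 to 3.51), with 9.65 CPM against 30.8 CPM. The calls of Hoxb2, Hoxb8 and Hoxd3 were lost without cells over 2 times the median UMIs and with every cell weighted the same. Over all cells Hoxc9 had 86.8 and 82.3 CPM and Hoxa7 78.4 and 79.2 CPM. Within clusters 0, 1 and 2 of the clustering described further on, the ratios of Hoxa7 were 2.28, 0.567 and 0.506. Those of Hoxc9 were 1.42, 0.544 and 0.483, so both genes had ratios on both sides of 1. Among the called genes, Hoxb6 had 2.81, 1.69 and 2.01 there and Hoxb7 2.32, 1.44 and 1.33. Hoxb8 had 2.2, 1.09 and 0.951, and Hoxb2 had 1.56, 0.897 and 1.15. Hoxd3 had 1.79, 0.652 and 0.895, with a mean below 10 CPM in cluster 0.

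**Figure D2:**
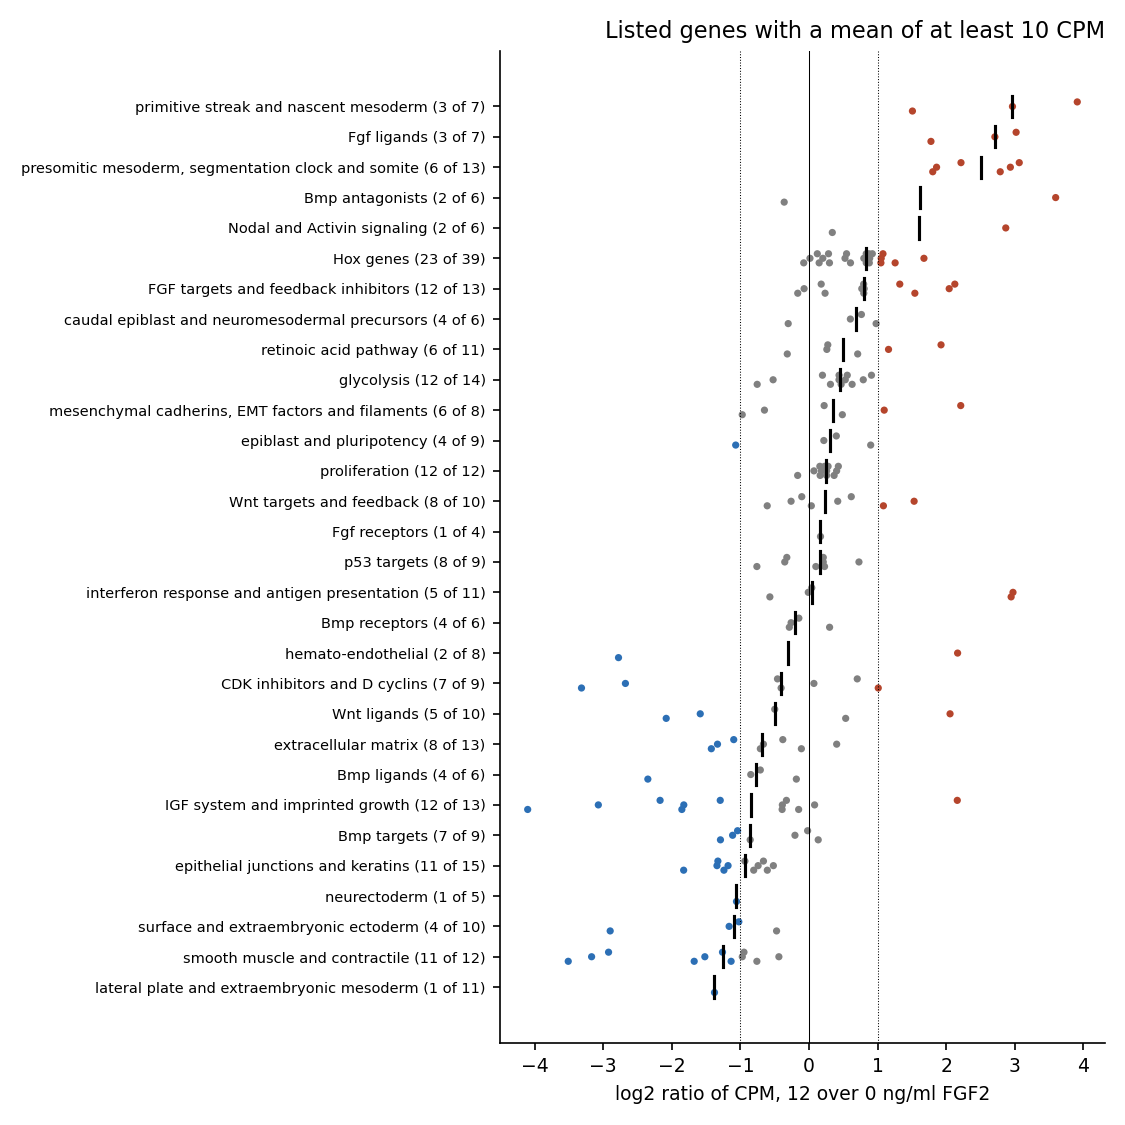
log2 ratio of CPM, 12 over 0 ng/ml FGF2, for each listed gene with a mean of at least 10 CPM. Points are genes (red at least 2-fold higher, blue at least 2-fold lower, gray in between), black bars are list medians, and the label gives how many of how many members are drawn.

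Fgf ligand genes and some FGF targets were higher with 12 ng/ml. The 3 Fgf ligand genes above 10 CPM were all called higher, where 1.38% of all genes were. But Fgf3 was so low at 0 ng/ml that reaching that mean fixed its call. Fgf8 had 24.5 CPM (23.3 to 25.9) without FGF2 and 160 CPM (157 to 163) with it, a ratio of 6.54 (6.18 to 6.92). Fgf3 had 3.61 against 29.2 CPM and Fgf17 14.3 against 48.9 CPM. Fgf4, below the level for a call, had 0.669 against 10.1 CPM. Among 12 targets and feedback inhibitors above 10 CPM, 4 were called higher and 0 lower, where 1.38% and 3.3% of all genes were. The median log2 ratio of the 12 was 0.80. The call of Spry4 was likewise fixed by its low level at 0 ng/ml. Spry4, a Sprouty inhibitor of ERK signaling, had 5.88 against 25.6 CPM, a ratio of 4.36 (3.88 to 4.92), and the ETS factor Etv4 had 15.9 against 46.4 CPM. Spry1 and Spry2 had ratios of 0.893 and 1.18 and Dusp6, a phosphatase of ERK, one of 1.75, and these were not called. Within clusters 0, 1 and 2, described further on, Spry4 had ratios of 5.6, 2.18 and 2.68. Those of Etv4 were 4.43, 1.53 and 0.949. Over all cells the receptor Fgfr1 had 64.7 CPM against 72.3 CPM. Another receptor, Fgfr2, below the level for a call, had 13.9 against 1.94 CPM.

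Of 4 Bmp ligand genes above 10 CPM, 1 (Bmp2) was called lower and 0 higher, where 3.3% and 1.38% of all genes were. The log2 ratios of the 4 genes ran from -2.35 to -0.184, and 3 of them were not called. Wnt ligand genes went in both directions. Bmp2 had 52.7 CPM without FGF2 and 10.3 CPM with it, 5.09-fold lower (4.70 to 5.53), and Bmp4, which is also the ligand added to the medium, had 76.2 against 42.3 CPM. Within clusters 0, 1 and 2, described further on, Bmp4 had ratios of 0.929, 1.13 and 0.69. Those of Bmp1 were 1.29, 0.607 and 0.968 and those of Bmp7 1.06, 1.02 and 1.37. Bmp2 had a ratio of 0.593 in cluster 0 and means below 10 CPM in clusters 1 and 2. Over all cells Fst, an extracellular antagonist of Activin and BMP ligands, was 12.1-fold higher (10.8 to 13.5), with 5.81 against 70.2 CPM. Of 7 BMP target genes above 10 CPM, 3 (Id2, Msx2 and Bambi) were called lower and 0 higher, while Id1 had 164 and 180 CPM. The shares of all genes called lower and higher were 3.3% and 1.38%. Wnt4 had 134 against 31.7 CPM and Wnt6 126 against 42.0 CPM, whereas Wnt5b had 13.1 against 54.5 CPM. Of 8 Wnt targets above 10 CPM, 2 (Sp5 and Lef1) were called higher and 0 lower, where 1.38% and 3.3% of all genes were. Sp5 and Lef1 had ratios of 2.89 and 2.12, and Axin2, a general feedback target of Wnt signaling, had 68.0 and 69.6 CPM. Within clusters 0, 1 and 2, Sp5 had ratios of 3.28, 2.46 and 1.43 and Lef1 1.0, 1.2 and 1.1. Over all cells Cyp26a1, which degrades retinoic acid, had 9.96 against 37.8 CPM, and Lefty1, a Nodal inhibitor, 2.90 against 21.2 CPM.

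Epithelial and contractile genes were lower with 12 ng/ml. Cdh1 (E-cadherin) had 93.6 CPM (91.1 to 96.2) without FGF2 and 39.7 CPM (38.2 to 41.2) with it, 2.36-fold lower. The simple-epithelium keratin Krt18 had 1082 against 305 CPM and its partner Krt8 823 against 328 CPM. Of 11 epithelial genes above 10 CPM, 5 were called lower and 0 higher, where 3.3% and 1.38% of all genes were. Cdh2 (N-cadherin) had 57.2 against 122 CPM, a ratio of 2.14 (2.05 to 2.23), and Snai1, a repressor of Cdh1, 4.95 against 22.9 CPM. Within clusters 0, 1 and 2 of the clustering described further on, the ratios of Cdh2 were 0.681, 1.06 and 0.94. The ratio over all cells was thus not seen within any of these clusters. Not all mesenchymal genes were higher over all cells, since Vim had 320 against 204 CPM and Twist1 21.0 against 10.7 CPM.

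Of 11 smooth muscle and contractile genes above 10 CPM, 7 were called lower and 0 higher, where 3.3% and 1.38% of all genes were. Among these, Myl9 and Cnn1 were so low at 12 ng/ml that they could reach that mean only if called lower. Tagln, an actin-binding protein of smooth muscle, had 478 CPM (472 to 483) without FGF2 and 42.0 CPM (40.5 to 43.5) with it, 11.4-fold lower (11.0 to 11.8). Acta2, smooth muscle actin, had 141 against 15.7 CPM, and Acta1, skeletal muscle actin, had 76.3 against 8.89 CPM. Such genes are classical targets of serum response factor, which binds the CArG box, a 10-base element with CC and GG around 6 bases that are A or T. In RefSeq promoter windows on GRCm38, the 250 bases before the start held a CArG box in 1.47% of 32851 windows, and in 2 of the 10 smooth muscle genes that had a window (Myl9 and Cnn2). Acta1, one of the 15 genes with the smallest ratios, also had one. Lists that were not lower with 12 ng/ml held it too, in 2 of 12 windows of Wnt targets (Lef1 and Tcf7), 1 of 6 of streak genes (Mesp1) and 1 of 11 of presomitic genes (Mesp2), so nothing particular to contractile genes is read from it. The stretches before the first annotated transcript start are shown on the strand of each gene, with the CArG box in capitals, to let the element be seen in the promoters of these 3 genes. They lie at chr8:123894776-123895025 on the minus strand for Acta1, and on the plus strand at chr2:156775214-156775419 for Myl9 and chr10:79988350-79988583 for Cnn2.
Acta1: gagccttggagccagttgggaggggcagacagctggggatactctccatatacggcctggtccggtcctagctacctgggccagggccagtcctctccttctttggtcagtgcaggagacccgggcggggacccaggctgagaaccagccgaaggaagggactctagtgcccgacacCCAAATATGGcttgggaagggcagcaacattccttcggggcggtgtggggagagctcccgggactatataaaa
Myl9: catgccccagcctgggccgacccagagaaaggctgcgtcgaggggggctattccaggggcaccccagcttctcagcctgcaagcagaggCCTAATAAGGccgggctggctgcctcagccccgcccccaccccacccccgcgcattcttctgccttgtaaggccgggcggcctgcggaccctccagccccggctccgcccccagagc
Cnn2: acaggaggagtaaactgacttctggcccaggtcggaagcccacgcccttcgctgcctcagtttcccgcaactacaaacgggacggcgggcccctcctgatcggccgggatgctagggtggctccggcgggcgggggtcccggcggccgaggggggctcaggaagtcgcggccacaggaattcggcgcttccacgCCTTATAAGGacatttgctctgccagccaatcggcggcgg
Myl9, a myosin light chain, had 17.0 against 5.33 CPM, with its call lost where every cell was weighted the same, and Cnn2, a calponin that binds actin, had 209 against 73.0 CPM. A match is a description of these letters and no measure of binding.

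Sp5, a transcription factor switched on by Wnt signaling, had 33.8 CPM without FGF2 and 97.9 CPM with it. Its 250 bases at chr2:70474673-70474922 on the plus strand are shown because they hold 4 copies of the TCF/LEF core, searched as CTTTGA or CTTTGT on either strand and set in capitals.
Sp5: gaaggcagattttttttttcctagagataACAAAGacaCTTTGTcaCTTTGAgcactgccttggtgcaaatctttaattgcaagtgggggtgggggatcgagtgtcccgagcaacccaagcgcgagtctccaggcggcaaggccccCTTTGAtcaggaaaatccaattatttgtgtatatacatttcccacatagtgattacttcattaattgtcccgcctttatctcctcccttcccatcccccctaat
This short core is common, with at least 1 copy in 27.6% of all windows. For the 15 genes with the largest ratios it was in 6 of 13 windows, for Wnt targets in 3 of 12, for presomitic genes in 3 of 11 and for Fgf ligand genes in 1 of 4, counts too small to set the lists apart from that share.

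Growth regulators differed strongly in a few members. The IGF-binding genes Igfbp5 and Igfbp2 were 17.1-fold and 8.40-fold lower with 12 ng/ml, whereas Igfbp3 had 22.5 against 100 CPM. The imprinted growth factor gene Igf2 had 272 against 75.3 CPM and the imprinted Mest 119 against 33.6 CPM. In this list of 12 genes above 10 CPM, 6 were called lower and 1 higher, where 3.3% and 1.38% of all genes were. The neighboring CDK inhibitor genes Cdkn2a and Cdkn2b had 57.5 against 9.0 CPM and 42.3 against 4.25 CPM. Cyclin D2 (Ccnd2) had 175 against 352 CPM, a call that was lost without cells over 2 times the median UMIs. For proliferation genes, 0 of 12 were called, and Mki67 had 218 and 194 CPM. For p53 targets 0 of 8 and for glycolysis genes 0 of 12 were called, the latter with a median log2 ratio of 0.45 and Ldha at 653 against 1228 CPM. Of all genes 4.67% were called, so counts of 0 in lists this small do not set these lists apart.

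Regulators of other lineages were mostly lower or barely detected. Tfap2a, a factor of surface ectoderm, had 47.6 against 6.39 CPM, Runx1, a blood regulator, 57.2 against 8.35 CPM, and Hand1, a factor of lateral and extraembryonic mesoderm, 85.7 against 32.7 CPM. Lmo2, a partner of blood regulators, had 6.64 against 29.8 CPM. The defining endothelial marker Cdh5 was at 0.106 and 0.24 CPM and the blood regulator Tal1 at 0.0352 and 0.0706 CPM. None of the 7 endoderm and 4 germ cell genes reached a mean of 10 CPM over all cells, though Sox17 was higher within cluster 3, described further on. The interferon-inducible genes Isg15 and Psmb8 were 7.85-fold and 7.70-fold higher, but 3 further members, B2m among them at 61.4 and 63.1 CPM, were not called. Isg15 and Psmb8 were so low at 0 ng/ml that reaching a mean of 10 CPM fixed their calls.

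The differences in level were partly differences in how many cells had a UMI. To compare at equal depth, each cell was thinned to 10000 UMIs, which left out 17 cells at 0 ng/ml and 9 at 12 ng/ml. T was detected in 254 of 1679 cells (15.1%, 13.4 to 16.9) without FGF2 and in 1559 of 2397 cells (65.0%, 63.1 to 67.0) with it, and in 24.6% and 82.2% without thinning. Cells with a T UMI held a mean of 1.80 UMIs at 0 ng/ml and 3.10 at 12 ng/ml. For Tbx6 the shares were 4.41% and 32.3%, for Fgf8 14.5% and 59.1%, and for Rspo3 24.7% and 79.3%. Cdh1 was detected in 47.7% and 22.4% of cells, Krt18 in 73.5% and 35%. For Acta2 the share went from 23.7% to 12.7%, a smaller difference than that in UMIs per positive cell, which had a mean of 4.76 against 1.31. No cluster is known to lack T at 12 ng/ml, so the part of free RNA in its share was not measured. The lowest share of T-positive cells in any cluster of the clustering described next was 1.83% at 0 ng/ml, in cluster 3, and 25.6% at 12 ng/ml, in cluster 0, at median depths of 30778 and 29859 UMIs. The cluster with the fewest cells positive for Cdh1, cluster 2, had 2.94% of cells at 0 ng/ml and 2.01% at 12 ng/ml, at median depths of 29808.5 and 27389 UMIs.

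**Figure D3:**
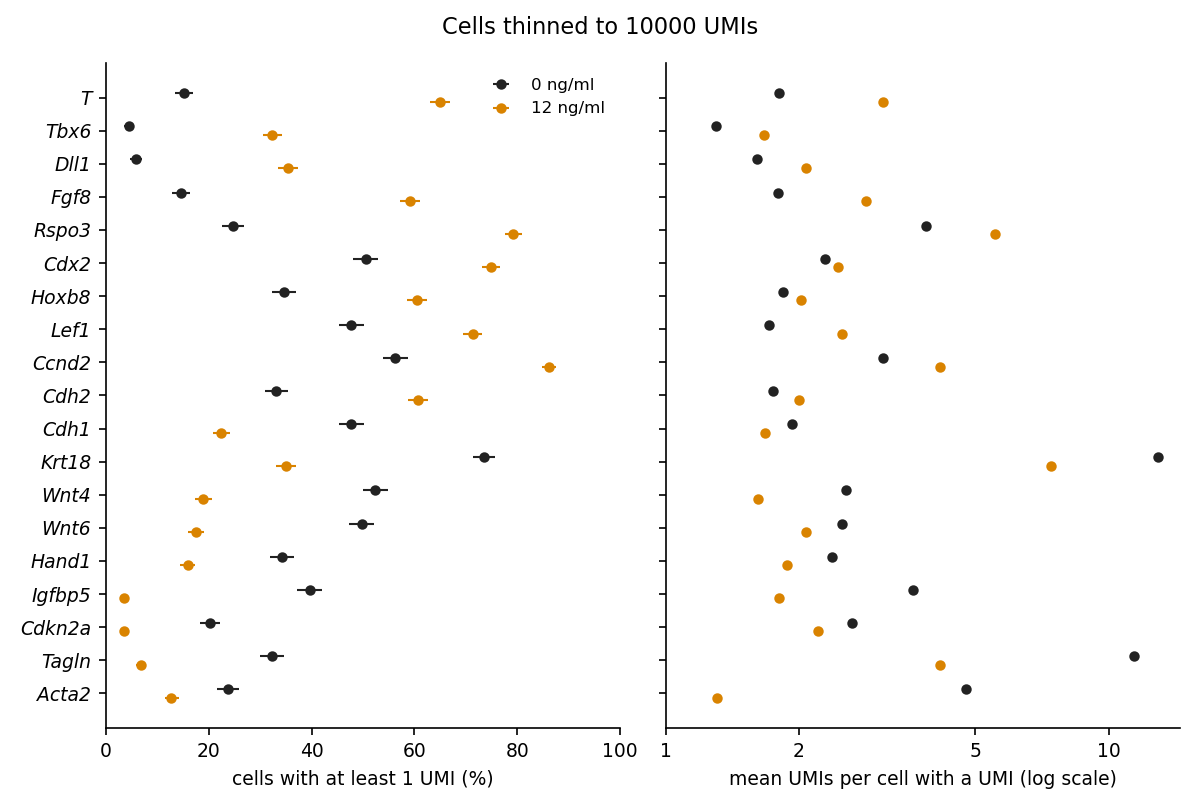
Share of cells with at least 1 UMI (left, in percent, bars are exact 95% intervals) and mean UMIs per cell with a UMI (right, log scale), each cell thinned to 10000 UMIs, at 0 ng/ml (black) and 12 ng/ml FGF2 (orange). T, Fgf8 and Rspo3 differ in both measures, while Cdh2 and Cdx2 differ mainly in the share of cells.

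Genes were also read in the same cells. These pairs were chosen after levels had been seen. At 12 ng/ml, 71.5% of T-positive cells had an Fgf8 UMI (69.1 to 73.7), against 36.2% of T-negative cells, and at 0 ng/ml 49.2% against 8.35%. T-positive cells had a Cdh1 UMI in 17.3% of cells at 0 ng/ml and 19.6% at 12 ng/ml, whereas cells without a T UMI had one in 53.1% and 27.7%. At 0 ng/ml, 65.3% of Cdkn2a-positive cells also had a Tagln UMI, and 23.9% of the rest did. These shares describe the cells of 1 library per dose.

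The cells of both libraries were clustered on 1398 variable genes, without listed genes, Hox genes or any gene with a ratio of at least 2 either way. Listed and called genes therefore took no part. The clusters are numbered by size and are not named as cell types. Cluster 0, led by Tnc, Tagln and Thbs1, held 62.6% of cells (60.3 to 64.9) at 0 ng/ml and 16.8% (15.4 to 18.4) at 12 ng/ml. Cluster 1, led by Arg1, Epha5 and Sprr2a3, held 24.6% and 39.4%. Cluster 2, led by Frzb, Pcdh19 and Tbx6, held 6.31% and 43.6%. Cluster 3, led by Rhox9, Gm9112 and Pkib, held 110 cells (6.49%) at 0 ng/ml and 4 cells (0.166%) at 12 ng/ml. The summed absolute difference between the compositions, divided by 2, was 52.1 percentage points. A cluster mostly of 1 library may be that library and not a type, and cluster sizes and expression within a library are not independent.

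Within clusters, some genes kept their difference and others did not. Krt18 had 1390 CPM without FGF2 and 1305 CPM with it in the cells of cluster 0, a ratio of 0.939 (0.923 to 0.955), whereas over all cells it was 3.55-fold lower. Cdh1 had 126 and 127 CPM in cluster 0. Wnt6 had 170 and 141 CPM there, a ratio of 0.832. Outside cluster 0 the same genes were less close. Krt18 had 101 against 142 CPM in cluster 1 and 29.7 against 14.8 CPM in cluster 2, ratios of 1.4 and 0.499 (0.399 to 0.630), and Cdh1 had a ratio of 2.74 in cluster 1. T had 5.10 against 65.8 CPM in cluster 0 and 78.6 against 366 CPM in cluster 1, ratios of 12.9 (11.0 to 15.2) and 4.66 (4.37 to 4.96), but 80.9 against 129 CPM in cluster 2. Fgf8 had ratios of 9.86, 3.76 and 1.63 in clusters 0, 1 and 2. Cluster 0 is the cluster with the lowest share of T-positive and of Fgf8-positive cells at 12 ng/ml, 25.6% for each gene, and the part of free RNA in the levels there was not tested. Tbx6, Dll1, Dll3, Hes7 and Nrarp had ratios of 3.30, 3.25, 2.91, 1.54 and 1.92 in cluster 1. In cluster 2 their ratios were 1.29, 1.42, 1.16, 0.858 and 0.878. In cluster 0, where the means of Tbx6, Dll1 and Dll3 were below 10 CPM, Hes7 and Nrarp had 4.44 and 2.35. Mixl1 had ratios of 8.03 and 4.04 in clusters 1 and 2, and Evx1 1.27 and 1.02. For Rspo3 they were 3.59, 2.05 and 1.45 in clusters 0, 1 and 2. Acta2 had 211 against 12.2 CPM in cluster 0, 17.2-fold lower, and 16.4 against 15.3 CPM in cluster 1. Igfbp5 was 5.11-fold lower in cluster 0 and 18.4-fold lower in cluster 1. In cluster 2, where its mean was below 10 CPM, it had 5.31 against 0.165 CPM, a ratio of 0.0311 (0.00896 to 0.0877). Of the 39 named genes called higher, those at least 2-fold higher within a cluster were 16 of 21 with a mean of 10 CPM in cluster 0, 18 of 36 in cluster 1 and 8 of 37 in cluster 2. Of the 44 called lower, 23 of 44 were at least 2-fold lower in cluster 0, 6 of 26 in cluster 1 and 4 of 18 in cluster 2. In cluster 1, 3 of the genes called lower (Cdh1, Krt8 and Perp) and in cluster 2, 2 of them (Tagln2 and Sparc) were at least 2-fold higher. These genes had been picked by their ratio over the same cells, and a gene can reach the mean within a cluster through its higher side alone. The share of all genes past 2-fold within each cluster was not computed. The counts thus describe these genes and have no background beside them.

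**Figure D4:**
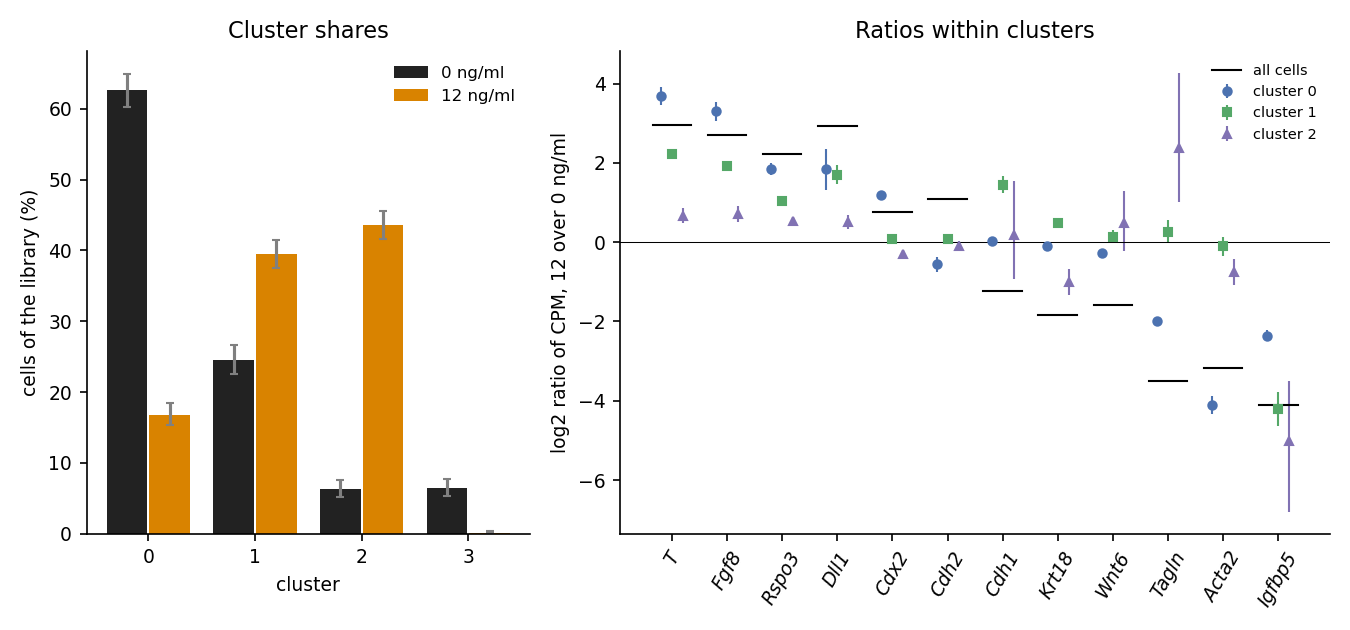
Left, share of cells of each library in each cluster, in percent with exact 95% intervals; cluster 0 holds 62.6% of cells at 0 ng/ml and 16.8% at 12 ng/ml. Right, log2 ratio of CPM, 12 over 0 ng/ml, within clusters 0, 1 and 2 (symbols, with counting intervals) and over all cells (black bars); Krt18 lies near 0 in cluster 0, while T and Igfbp5 do not.

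The 2 doses between, which the rule of size did not use, show where along the range the difference lay. Of the 109 genes higher at 12 ng/ml, 108 had a level between the ends at 0.75 ng/ml, at a median of 47.3% of the log2 difference, and at 3 ng/ml the median was 89.6%. The 261 lower genes had medians of 52.1% and 98.7%, and 123 of them were already at or below the 12 ng/ml level at 3 ng/ml. T had 26.7, 92.7, 205 and 208 CPM at 0, 0.75, 3 and 12 ng/ml, so 3 and 12 ng/ml were alike. Tbx6 had 5.86, 11.5, 30.4 and 49.0 CPM, and Dll1 8.82, 20, 46.9 and 67.4 CPM, so these presomitic genes differed between the upper doses as well. Cdkn2a had 57.5, 9.11, 7.27 and 9.0 CPM, with nearly the whole difference between 0 and 0.75 ng/ml. Tfap2a had 47.6, 36.1, 11.8 and 6.39 CPM. Each dose is again 1 library, and the values share the libraries of the ends.

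**Figure D5:**
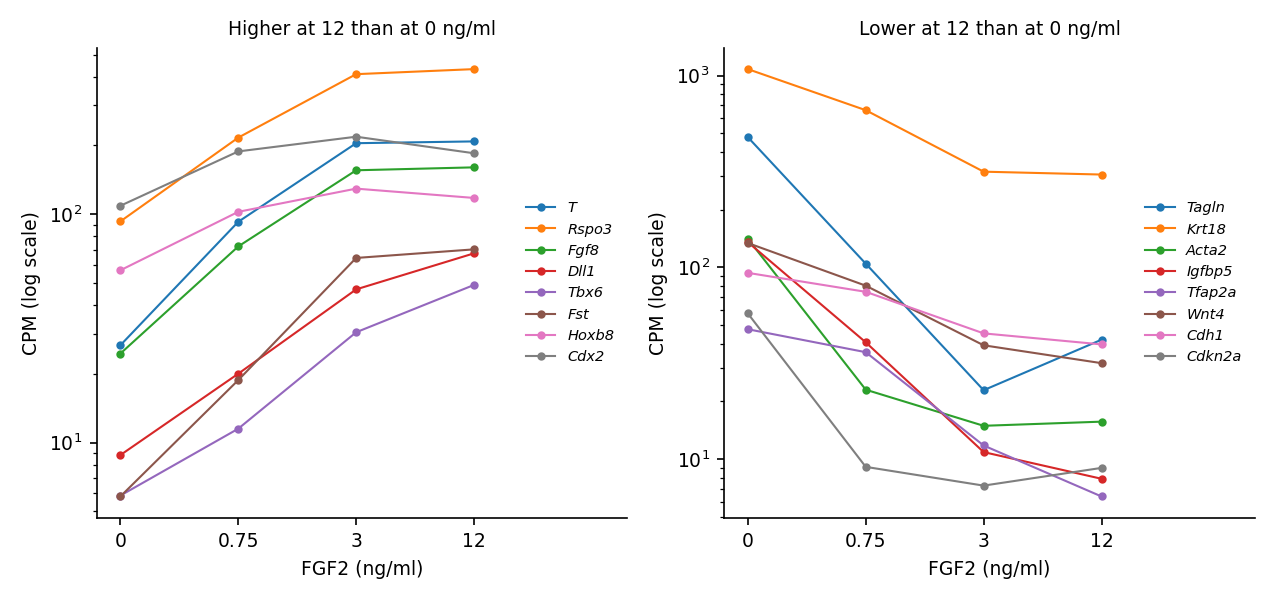
Level in CPM (log scale) at each FGF2 dose, 1 library per dose, for 8 genes higher (left) and 8 lower (right) at 12 than at 0 ng/ml. T, Fgf8 and Rspo3 are level from 3 to 12 ng/ml, while Tbx6 and Dll1 are higher again at 12 ng/ml.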

How the data were processed

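Single-cell RNA-seq libraries (10x 3′, 1 per dose) were compared at 0 and 12 ng/ml FGF2. The authors deposited raw counts of UMIs for every gene and barcode, from reads aligned to the mm10 genome and a 10x annotation (GENCODE vM23/Ensembl 98). Matrix headers name Cell Ranger 5.0.1, while the methods name an earlier version. The methods' filters on cells had not been applied to the deposited counts and were applied here. UMIs were summed over kept cells and scaled to CPM without a pseudocount, with exact Poisson intervals for levels, exact conditional intervals for ratios and exact Clopper-Pearson intervals for shares, at 95%. A gene passed with a mean of at least 10 CPM and a ratio of at least 2. No test was run, since there was 1 library per dose. Positions are GENCODE vM21 on GRCm38, in which 32235 of 32285 gene identifiers were matched, and promoter sequences are RefSeq's on GRCm38.

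Clustering followed the methods in Scanpy 1.11.5 with counts scaled to 50000 per cell, log transformation, regression of depth and mitochondrial share, 50 principal components, 15 neighbors and Leiden resolution 0.33 (leidenalg 0.10.2). No doublet caller was run and no doublets were removed. For TMM scaling, edgeR 4.0.16 was used under R 4.3.3. Python 3.11.15, NumPy 2.4.6, SciPy 1.17.1 and pandas 2.3.3 were used. The steps were tested on simulated counts. Named genes were the members of 32 lists (323 genes, with 39 Hox genes) and the 15 largest and 15 smallest ratios among genes with a mean of at least 10 CPM. The comparison, its lists and alternatives were chosen with earlier results of these data known. Alternatives changed the filters on cells, the scaling, the weight of each cell, the limits of the rule, the thinning depth and the clustering. The FGF2 dose of the AZD4547 library is not given in the sources used here.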

Additional observations from a re-analysis of the deposited data

How the results depend on the processing

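Counts of genes kept within 1.5 times of 370, 109 and 261 under other filters on cells, other scalings and equal weight of cells. They depended on the limits. With a mean of at least 1 CPM, 1123 genes passed, 376 higher and 747 lower. With at least 50 CPM in either library, 130 passed, 38 higher and 92 lower. With a ratio of 1.5, 898 passed, 281 higher and 617 lower, and with a ratio of 3, 147 passed, 47 higher and 100 lower. The distance between cluster compositions was 55 percentage points at Leiden resolution 0.5, 56.3 at resolution 1, 57.1 with all variable genes and 55.8 with 20 principal components. No named gene that was called changed direction. Without cells over 2 times the median UMIs, 6 of 83 named calls were lost (Grhl2, Ccnd2, Hoxb2, Hoxb8, Hoxd3 and Cabp1), and with every cell weighted the same 5 were lost (Myl9, Hoxb2, Hoxb8, Hoxd3 and Cabp1). With at most 5% mitochondrial UMIs Grhl2 and Ccnd2 were lost, and with all deposited barcodes Cabp1. The cause was not tested. Of 1442 alternative log2 ratios of named genes, 134 lay outside the counting interval of the main value, as did 22 of 56 alternative changes in the share of cells with a UMI. No paired analysis was possible because each dose has 1 library.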

Other observations

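A few genes were alike at both ends of the range and not between. Of 5203 genes whose ratio between 0 and 12 ng/ml was under 1.2, 2 were at least 1.4-fold above both ends at 0.75 and 3 ng/ml, and 3 were as far below. These limits were chosen after the levels had been seen. Msx1, a homeobox target of BMP signaling, had 138, 237, 214 and 136 CPM at 0, 0.75, 3 and 12 ng/ml FGF2. Hoxa7 had 78.4, 127, 120 and 79.2 CPM. The genes lower at the middle doses were Anxa11 (10.8, 7.09, 5.63 and 11.3 CPM), Elk3 (13.4, 7.0, 8.33 and 12.0 CPM) and Clu (17.3, 12.1, 11.5 and 18.1 CPM). A comparison of the ends alone does not show these genes.

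The library with 30 nM of the FGFR inhibitor AZD4547, whose FGF2 dose is not given in the sources used here, lay beyond the 0 ng/ml library for most called genes. Of the 109 genes higher at 12 ng/ml, 93 were lower with the inhibitor than at 0 ng/ml, 49 of them at least 2-fold, where of all 7919 genes 54.5% were lower and 3.17% at least 2-fold lower. Of the 261 lower genes, 216 were higher with the inhibitor than at 0 ng/ml, 87 at least 2-fold, where of all genes 45.5% were higher and 2.66% at least 2-fold higher. These values share the 0 ng/ml library with the calls. T had 0.753 CPM with the inhibitor and 26.7 CPM without FGF2, and Tagln had 1915 CPM and 478 CPM. Nup62cl, lower at 12 ng/ml, was an exception with 11.0 CPM with the inhibitor against 26.8 CPM without FGF2.

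Cluster 3, with 110 cells at 0 ng/ml and 4 at 12 ng/ml, was led by genes that include Esx1, Ascl2 and Plac1, known from placenta. The leading genes also held Sox17, from the endoderm list, with 44.6 CPM in the cluster against 0.525 CPM in other cells. Gata2, from the hemato-endothelial list, had 114 against 2.86 CPM. In each of 4 other clusterings a single cluster took at least 98.2% of these cells, with 112 to 119 cells of the 0 ng/ml library and 4 to 6 of the 12 ng/ml library.

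Within cluster 1, 7 of the 10 epithelial genes with a mean of 10 CPM there were at least 2-fold higher at 12 ng/ml. In cluster 0 the count was 0 of 11 and in cluster 2 it was 1 of 4. The share of all genes as much higher within cluster 1 was not computed. Nothing particular to epithelial genes is therefore read from the count. Cdh1, Krt8 and Perp were called lower over all cells, and Epcam, Cldn7, Krt19 and Esrp1 were not called. Cdh1 had 14.2 CPM there without FGF2 and 38.9 CPM with it, a ratio of 2.74 (2.34 to 3.21).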
